A study of Mus musculus with 10 samples.

Results

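The regenerating islet-derived (Reg) genes encode small secreted proteins built around a single C-type lectin domain. The 7 mouse genes Reg1, Reg2, Reg3a, Reg3b, Reg3d, Reg3g and Reg4 were found by their symbols among the 23079 genes of an RPKM table (reads corrected for transcript length and library depth), and each was followed along the gut and across surgery. Male C57BL/6J mice aged 17 weeks, on a high-fat diet for 13 weeks, had either vertical sleeve gastrectomy (VSG), in which the lateral 80% of the stomach is removed, or a sham operation, in which the abdomen was opened and the stomach pressed with hemostats. All of them took a liquid diet for the first 3 days after the operation. The 10 libraries of total RNA comprise 1 sham and 1 VSG library from each of 5 tissues: stomach, duodenum, jejunum, ileum and colon. The labels name no other allele or agent, and leave out the number of animals per library, whether libraries share animals, and the time between surgery and sampling.

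In the gut, Reg3b and Reg3g are secreted by enterocytes and Paneth cells and act on bacteria near the epithelium. Reg3g binds the peptidoglycan of Gram-positive bacteria, and Reg3b acts on some Gram-negative ones. Both are induced by microbial signals through Myd88 and by interleukin 22 through Stat3. Reg1 and Reg2 are known as secretory products of pancreatic acinar cells, and Reg1 is also made in the upper small intestine. Reg4 marks secretory cells of the crypt, among them the deep crypt secretory cells of colon and enteroendocrine cells.

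The library labelled Sham Duodenum did not carry the markers of its tissue. Its list of 14 neuron and glia genes summed to 2682 RPKM, against 15.8 to 65.0 RPKM in the other 9 libraries, and its 16 brush border genes summed to 17.03 RPKM, against 32018 RPKM in VSG Duodenum. The VSG Stomach library held RNA of other tissues and cells: 15 liver genes summed to 21276.5 RPKM, against 76.5 RPKM in Sham Stomach, and 12 neutrophil genes to 1683 RPKM, against 33.7 RPKM. In the same pair 7 of 9 stomach identity genes were lower in VSG Stomach, and their sum was 150465 RPKM in the sham and 29492.7 RPKM in the VSG library. Most genes kept from the pancreatic acinar list stood higher in the VSG than in the sham library in stomach (16 of 23, with 2 lower), jejunum (17 of 20) and colon (16 of 21). Ctrb1, the chymotrypsinogen of acinar cells, was at 0.633 and 466 RPKM in the sham and VSG library of stomach, 0.506 and 75.4 RPKM in jejunum and 0.945 and 143 RPKM in colon, but 1.89 and 1.04 RPKM in ileum. Its highest level was 764 RPKM, in VSG Duodenum, where 24 of the 25 acinar genes reached 1 RPKM. The depth by which the authors' values were scaled, recovered from the steps between low values, ran from 37449452 reads in VSG Colon to 78382748 reads in Sham Stomach.

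Of the genes, 6 lie together on chromosome 6 and Reg4 lies apart on chromosome 3 (GRCm38). From left to right the cluster holds Reg3b (78370885 to 78373466), Reg3d (78375874 to 78378865), Reg3a (78380709 to 78383839), Reg2 (78405155 to 78408099), Reg1 (78425983 to 78428668) and Reg3g (78466269 to 78468874), while Reg4 spans 98222138 to 98236748. Reg3b and Reg3g moved together in jejunum, while Reg3a and Reg1 of the same cluster did not move with them. Reg3d, next to Reg3b, was not called in jejunum either, and its sequence is not shown. The 250 bases before the start of Reg3b, Reg3g, Reg3a and Reg1 are shown. They are RefSeq sequences of GRCm38.p6, read 5′ to 3′ on the strand of the gene, at chr6:78370635-78370884 (Reg3b, plus strand), chr6:78468875-78469124 (Reg3g, minus strand), chr6:78380459-78380708 (Reg3a, plus strand) and chr6:78425733-78425982 (Reg1, plus strand). Capitals mark a STAT-type motif (TTCNNNGAA), a TATA box (TATAAA) or an E-box (CACCTG).
Reg3b: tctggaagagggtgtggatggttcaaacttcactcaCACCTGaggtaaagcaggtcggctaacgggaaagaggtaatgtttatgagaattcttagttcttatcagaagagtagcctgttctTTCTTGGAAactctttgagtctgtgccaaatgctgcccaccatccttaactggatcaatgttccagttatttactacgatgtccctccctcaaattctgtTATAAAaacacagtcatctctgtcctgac
Reg3g: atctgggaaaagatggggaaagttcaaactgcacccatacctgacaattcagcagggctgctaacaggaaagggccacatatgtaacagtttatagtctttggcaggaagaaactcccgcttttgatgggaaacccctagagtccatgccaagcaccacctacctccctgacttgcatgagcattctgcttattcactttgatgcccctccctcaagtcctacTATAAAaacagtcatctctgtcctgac
Reg3a: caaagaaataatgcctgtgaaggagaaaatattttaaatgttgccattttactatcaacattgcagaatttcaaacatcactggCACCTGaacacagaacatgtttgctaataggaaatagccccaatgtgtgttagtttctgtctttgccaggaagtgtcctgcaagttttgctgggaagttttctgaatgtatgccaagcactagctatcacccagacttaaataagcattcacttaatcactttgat
Reg1: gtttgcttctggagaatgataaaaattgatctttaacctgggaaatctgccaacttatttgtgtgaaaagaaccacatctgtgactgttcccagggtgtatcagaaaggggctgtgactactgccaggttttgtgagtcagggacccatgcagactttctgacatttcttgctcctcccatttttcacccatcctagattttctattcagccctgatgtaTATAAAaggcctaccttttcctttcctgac

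The Reg3b sequence held a STAT-type match 129 bases before the start, an E-box 214 bases before it and a TATA box 29 bases before it. The Reg3g sequence held a TATA box 27 bases before the start and neither of the other motifs. The last 20 bases before the start were identical in Reg3b and Reg3g. Over all 7 genes, 2 held the STAT-type motif (Reg3b and Reg3d), 5 the E-box and 4 the TATA box. Reg3d, not called in jejunum, held its STAT-type match 238 bases before the start, and Reg3g, called there, held none. Of 32851 promoters of the same length, 7.02% held the STAT-type motif and 17.2% the E-box on either strand, and 7.59% the TATA box on the strand of the gene. The motifs do not overlap one another in these sequences, and a match is a description of the letters, not of binding. The transcripts differed in sequence: no pair among the 7 shared a window of 50 bases, and Reg3b and Reg3g, the only pair to share windows of 30 bases, shared 6. The read length is not given in the labels. Reg1 and Reg2, of 769 and 695 bases, were identical at 81.4% of the 442 bases that aligned, and the rest of each fell in gaps.

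The leading Reg gene differed along the gut. Of the summed RPKM of the 7 genes, Reg1 made up 81.4% in VSG Duodenum and 50.8% in Sham Jejunum, Reg3b 66.3% in Sham Ileum and 64.0% in VSG Ileum, and Reg4 50.8% in Sham Colon and 66.3% in VSG Colon. The sum itself was 6.93 and 143 RPKM in the sham and VSG library of stomach, 1249 and 3312 RPKM in jejunum, 5052 and 5133 RPKM in ileum and 303 and 217 RPKM in colon. In Sham Ileum the 7 genes held 1.10% of all RPKM of the library.

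**Figure D1:**
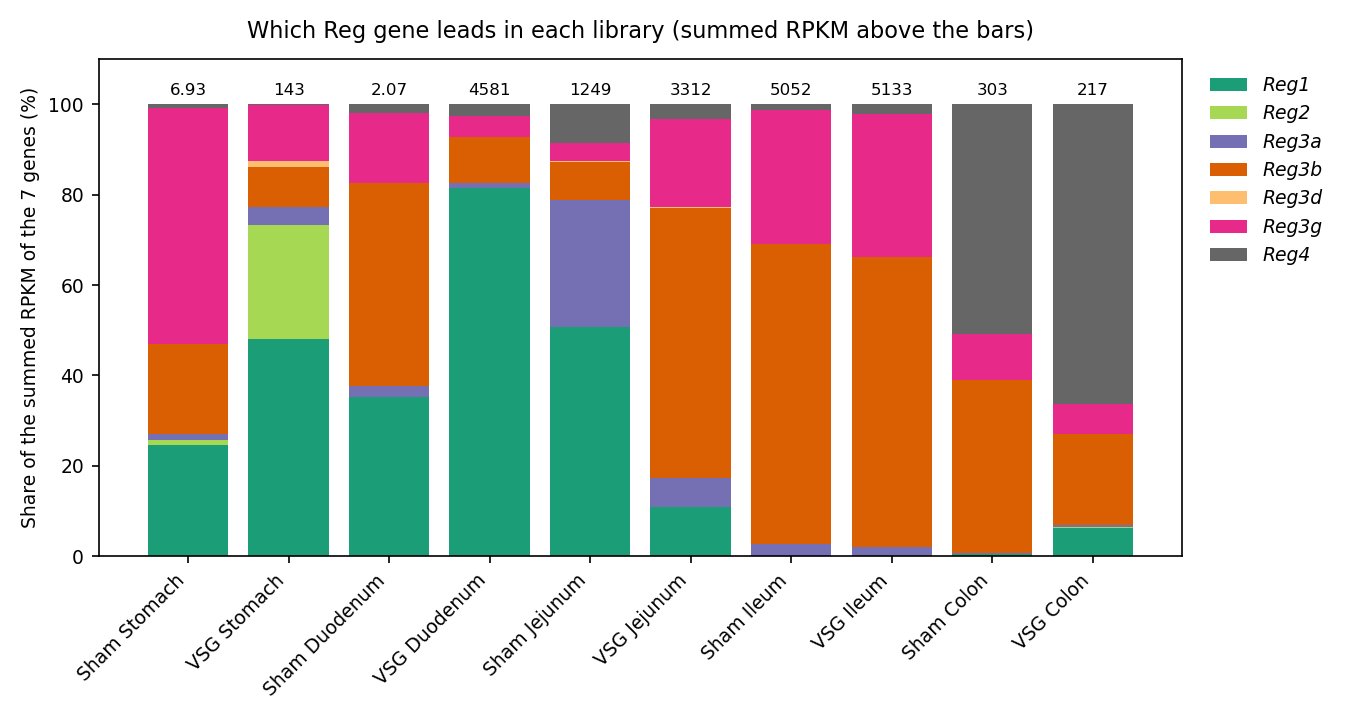
Share of each Reg gene in the summed RPKM of the 7 genes (vertical axis, %), 1 bar per library, with the summed RPKM above each bar. Reg1 fills most of VSG Duodenum, Reg3b leads in both ileum libraries and in VSG Jejunum (59.8%), and Reg4 leads in both colon libraries.

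The antibacterial lectin Reg3b was highest in ileum. Its level was 1.38 and 12.5 RPKM in the sham and VSG library of stomach, 105 and 1980 RPKM in the jejunum libraries, 3351 and 3284 RPKM in ileum, and 116 and 43.6 RPKM in colon. The VSG Duodenum library held 471 RPKM. Among all genes of a library, Reg3b ranked 13 in Sham Ileum and 16 in VSG Ileum, and its rank was 746 in Sham Jejunum and 19 in VSG Jejunum. The 2 ileum libraries lay above all others, and the jejunum pair was the widest apart of the pairs other than duodenum.

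Reg3g had a like pattern, at a lower level from duodenum to colon. It stood at 3.63 and 17.6 RPKM in the sham and VSG library of stomach, 50.1 and 645 RPKM in jejunum, 1499 and 1628 RPKM in ileum and 30.7 and 14.5 RPKM in colon, with 212 RPKM in VSG Duodenum. Both genes were thus highest in ileum, with VSG Jejunum next. The ratio of Reg3b to Reg3g RPKM lay between 2.02 and 3.77 in the 8 libraries of jejunum, ileum, colon and duodenum, and at 0.380 and 0.711 in Sham Stomach and VSG Stomach. The ratio in Sham Duodenum, 2.89, rests on 34 reads of Reg3b and 12 of Reg3g in a library without gut markers.

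Reg3a, another lectin of the same group, had its highest level in jejunum. Its values were 351 RPKM in Sham Jejunum and 216 RPKM in VSG Jejunum, 131 and 104 RPKM in ileum, 45.9 RPKM in VSG Duodenum, 0.0915 and 5.86 RPKM in stomach, and 0.612 and 0.542 RPKM in colon. It was thus low in both colon libraries, where Reg3b was not.

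Reg1, the acinar and upper intestinal member, reached the highest level of any Reg gene in the series. It stood at 3729 RPKM in VSG Duodenum, where it ranked 9 among all genes, at 634 and 358 RPKM in the sham and VSG library of jejunum, at 4.76 and 6.20 RPKM in ileum, at 1.45 and 13.4 RPKM in colon and at 1.71 and 68.8 RPKM in stomach. VSG Duodenum was also the library with the most Ctrb1, at 764 RPKM. The part of acinar RNA in its Reg1 level was not tested. The level of Reg1 was lower in ileum than in jejunum in both surgery groups. Ileum was the segment where Reg3b and Reg3g were highest.

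Reg4, the crypt secretory member, lay between 65.3 and 154 RPKM in the intestinal libraries other than Sham Duodenum and close to 0 in stomach. It was at 107 RPKM in Sham Jejunum and 110 RPKM in VSG Jejunum, 65.3 and 110 RPKM in ileum, 154 and 144 RPKM in colon and 116 RPKM in VSG Duodenum, but at 0.04998 and 0.275 RPKM in stomach. The order of the intestinal levels put colon first, and VSG Duodenum, VSG Jejunum and VSG Ileum lay within a few RPKM of one another.

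Reg2 and Reg3d, both known from pancreas, were low nearly everywhere. Reg2 ran from 0 to 36.1 RPKM with a median of 0.0729 RPKM, was at 0 in 4 libraries and reached 1 RPKM in 2, VSG Stomach at 36.1 RPKM and VSG Duodenum at 3.41 RPKM. Reg3d ran from 0 to 2.60 RPKM with a median of 1.008 RPKM and was at 0 in Sham Stomach and Sham Duodenum. In the library labelled Sham Duodenum the 7 genes ran from 0 to 0.930 RPKM, with Reg3b at 0.930 RPKM, Reg1 at 0.729 RPKM and Reg3g at 0.322 RPKM. In bulk tissue, fewer cells of a type and less RNA per cell cannot be told apart for any of these genes.

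**Figure D2:**
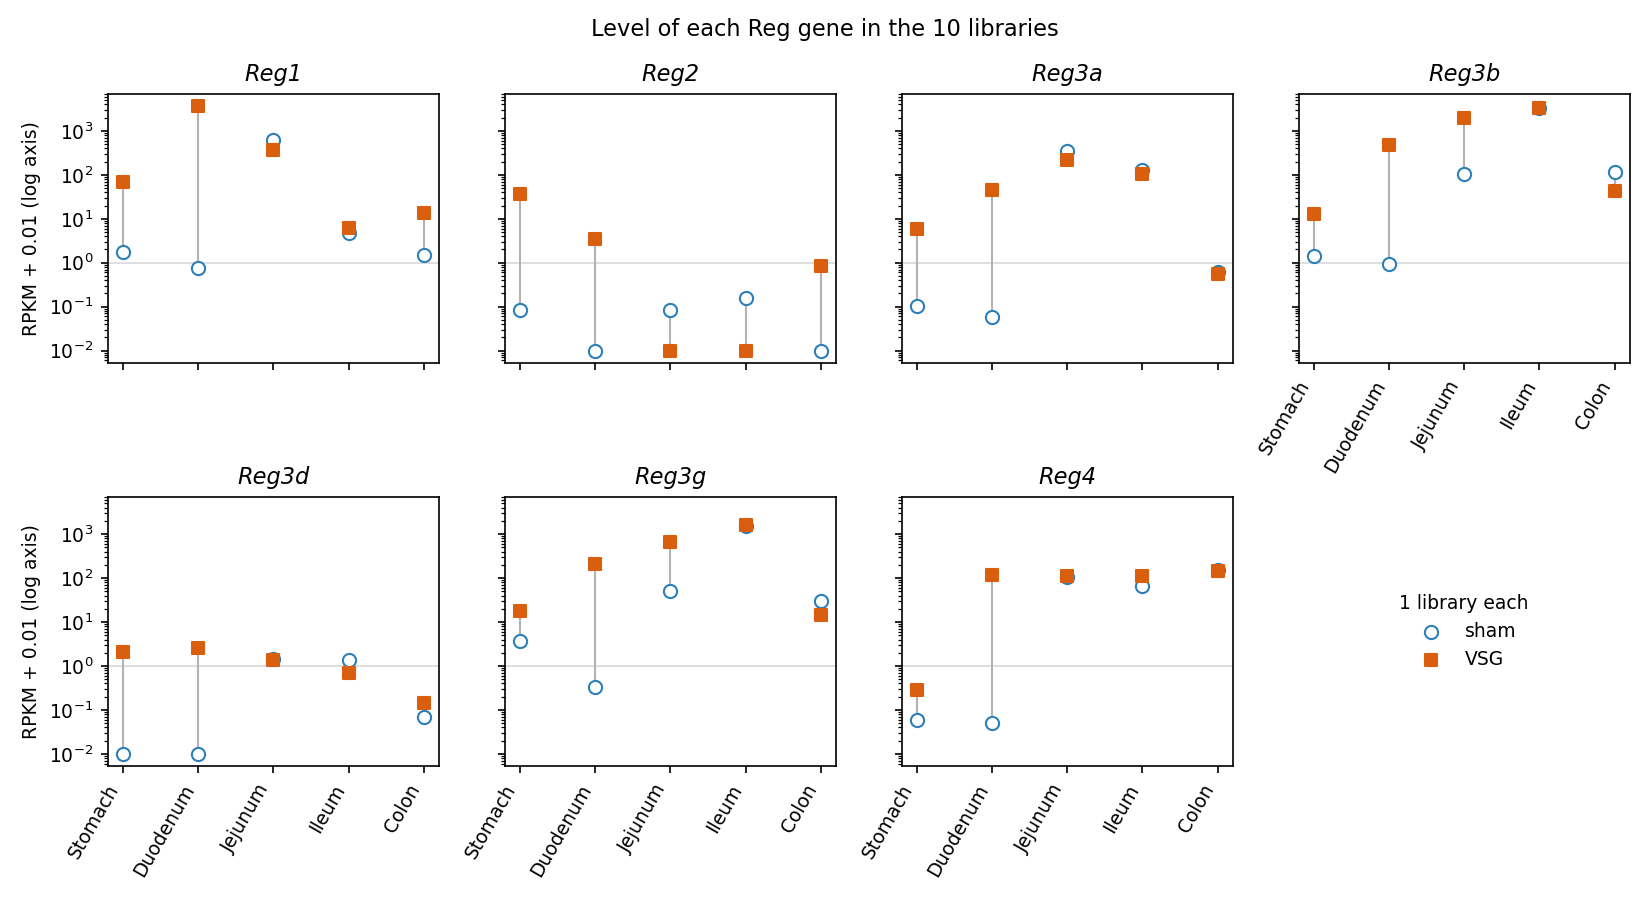
Level of each Reg gene in the 10 libraries (vertical axis, RPKM + 0.01 on a log axis; open circles, sham; filled squares, VSG; 1 library each; the pale line marks 1 RPKM). Reg3b and Reg3g are highest in ileum, Reg1 in VSG Duodenum and Reg3a in jejunum. Reg4 is close to 0 in stomach and between 65.3 and 154 RPKM from jejunum to colon.

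The position of each gene along the gut was tested with limma as its difference from the average of the other 4 tissues, over 9 libraries (all but Sham Duodenum) and on log2(RPKM + 1). A call needed an adjusted p under 0.05 (Benjamini-Hochberg over all 13325 genes kept) and a 2-fold difference. Surgery entered the fit as an additive term. Duodenum had only its VSG library here, so its estimate takes the surgery term from the other tissues. It is also assumed to vary like the others. With 1 library per tissue and surgery, these p-values measure how the VSG to sham difference varied among tissues, not a spread of replicates. That variation may be technical.

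In ileum, Reg3b was higher by 5.26 on the log2 scale (SE 1.14, limma adjusted p = 0.0472) and Reg3g by 5.03 (SE 0.94, limma adjusted p = 0.0331). Neither passed the threshold when genes were not filtered on level (limma adjusted p = 0.0797 and 0.0576), and Reg3b did not without the VSG Jejunum library (5.62, limma adjusted p = 0.0540). Reg4 was also called there, by 1.18 (limma adjusted p = 0.0207), so that 3 of the 7 genes were called higher in a tissue where 3.05% of all genes were. In jejunum the genes called were Reg3a (4.53, SE 0.69, limma adjusted p = 0.0118) and Reg4 (1.63, limma adjusted p = 0.00566), where 3.75% of all genes were called higher. Reg1 missed the threshold in jejunum (3.88, limma adjusted p = 0.0520) and in duodenum (6.54, limma adjusted p = 0.0736), and Reg3a missed it in ileum (2.98, limma adjusted p = 0.0566).

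Reg4 was called higher in colon by 2.19 (SE 0.18, limma adjusted p = 0.00187), where 7.88% of all genes were called higher, and in duodenum by 1.59 (limma adjusted p = 0.0327), against 3.61% of all genes. Each of these Reg4 differences is against a mean that includes stomach, where Reg4 was near 0. In colon, Reg1 had a log2 difference of -4.03 (limma adjusted p = 0.0413) and Reg3a one of -4.79 (limma adjusted p = 0.00775), against 4.65% of all genes called lower. In stomach 4 genes were lower: Reg3a at -3.80 (limma adjusted p = 0.0112), Reg3b at -6.23 (limma adjusted p = 0.0113), Reg3g at -4.22 (limma adjusted p = 0.0200) and Reg4 at -6.58 (limma adjusted p = 4.27e-05), against 10.4% of all genes. Of these 13 calls, 8 held without the VSG Jejunum library, and the 5 lost were Reg3b in ileum, Reg3a in jejunum and Reg4 in duodenum, jejunum and ileum. None of the 13 held when the Sham Duodenum library was added. Without the filter on low values 10 held, and the 3 lost were Reg3b and Reg3g in ileum and Reg1 in colon (limma adjusted p = 0.0623).

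**Figure D3:**
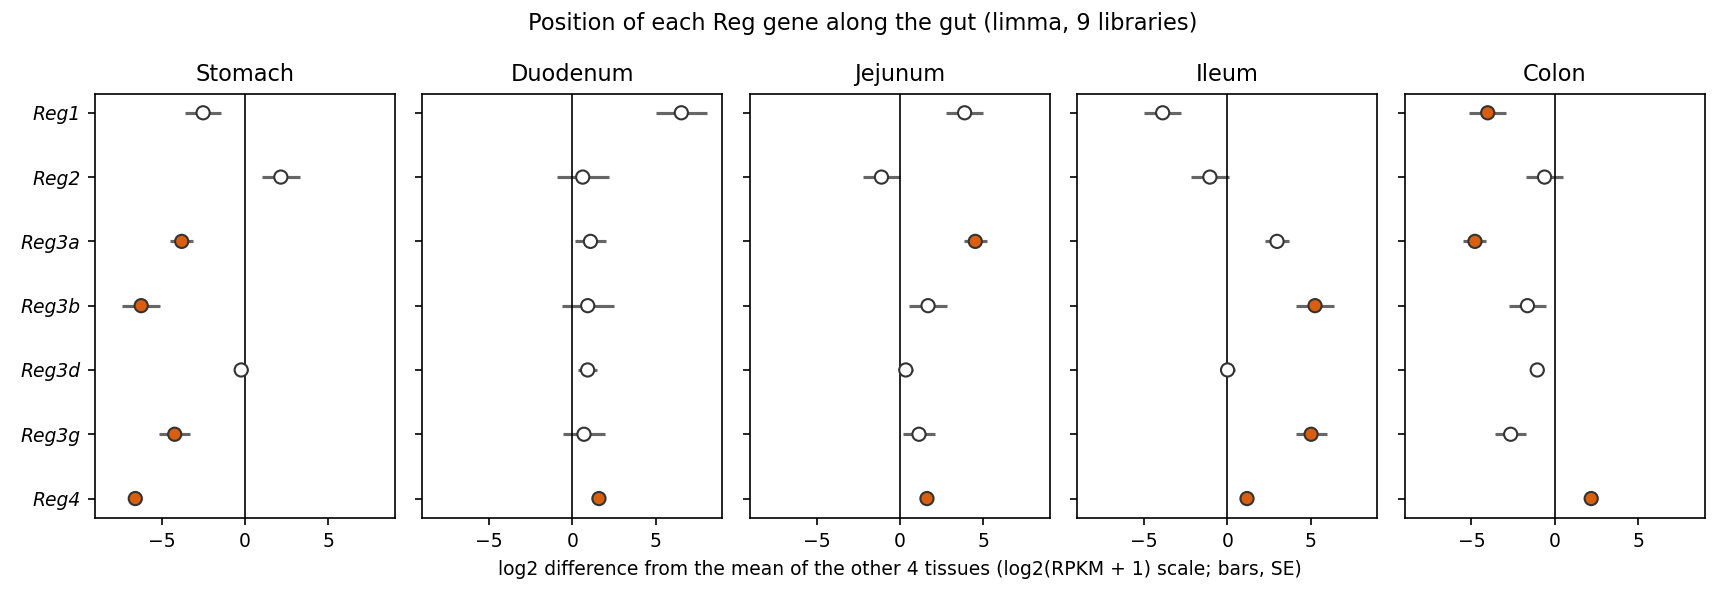
Difference of each tissue from the mean of the other 4 (horizontal axis, log2(RPKM + 1) scale; points, limma estimates from 9 libraries; bars, SE; filled points, called). Filled points to the right show Reg3b and Reg3g in ileum, Reg3a in jejunum and Reg4 in the 4 intestinal segments, and those to the left show 4 genes in stomach and 2 in colon.

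Surgery was compared within each tissue, the VSG library against the sham library. With 1 library in each group there is no test and no replicate check. Surgery cannot be told apart from other differences between the libraries of a pair, such as the position sampled within the segment. A gene was called at 2-fold or more on the log2(RPKM + 1) scale among genes whose pair averaged 1 RPKM or more, and the 95% intervals below are exact (Clopper-Pearson) and cover counting error only.

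In jejunum, Reg3b and Reg3g stood far higher in the VSG library and no other Reg gene was called. The level of Reg3b was 18.9 times that of the sham library (95% interval 18.0 to 19.9) and that of Reg3g 12.9 times (11.98 to 13.9). Across all genes kept in jejunum, 0.762% were called higher and 0.3% lower. Reg1 and Reg3a stood lower by less than the threshold, with a sham to VSG ratio of 1.77 (1.71 to 1.83) for Reg1 and 1.62 (1.55 to 1.69) for Reg3a. Reg4 had a ratio of 1.03 (0.966 to 1.09), and Reg3d one of 0.906 (0.484 to 1.77).

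Paneth cell genes moved with them: 11 of 13 stood at least 2-fold higher in VSG Jejunum, with a median log2 difference of 1.21 against -0.015 over all genes kept. The 13 genes summed to 5931 RPKM in the sham and 12766.6 RPKM in the VSG library, and none was at 0 in either. Among them Lyz1, the Paneth cell lysozyme, went from 1062 to 2459 RPKM, and the alpha-defensin Defa20 from 19.6 to 111 RPKM. In the same pair 17 of 20 acinar genes kept were higher, with a median of 3.26. The 25 acinar genes summed to 2526 RPKM in the sham and 2528 RPKM in the VSG library, mostly Zg16, which goblet cells make too, and 3 and 1 of them were at 0. Reg1, itself an acinar gene, was at 1253 times the RPKM of Ctrb1 in Sham Jejunum and at 4.75 times in VSG Jejunum. The larger change in that ratio was that of Ctrb1, at 0.506 and 75.4 RPKM, with Reg1 at 634 and 358 RPKM. Reg2 had 2 reads in Sham Jejunum and 0 in VSG Jejunum. The part of Paneth or acinar cells in the jejunal difference of Reg3b and Reg3g was not tested. Of 16 brush border genes of enterocytes 0 were called, with a median of -0.22, and of 9 goblet cell genes kept 0, with a median of -0.10.

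The pathway known to induce Reg3b and Reg3g was read from lists of its ligands, receptors and targets. Of the 12 ligand genes only Il33 and Lif were kept in jejunum, and neither reached 2-fold: Il33 was at 14.5 and 22.9 RPKM and Lif at 2.64 and 2.46 RPKM. Il22 itself was listed at 0 in both jejunum libraries, and also in both ileum libraries, where Reg3b and Reg3g were highest. Among the ligands under the level kept, Il1b (0.242 and 0.728 RPKM) and Tnf (0.119 and 0.399 RPKM) stood higher in VSG Jejunum. Of those ligands only Il6 stood lower (0.0151 and 0 RPKM), and Il17f and Csf3 were at 0 in both. Of 16 receptor and transducer genes kept, 0 were called, with a median of 0.08. Stat3 stood at 29.0 and 31.0 RPKM and Il10rb, a subunit of the interleukin 22 receptor, at 53.2 and 54.1 RPKM. Of 19 epithelial defence genes kept, 12 were higher and 0 lower, with a median of 1.29. The largest difference was that of the pentraxin Mptx2, from 2.77 to 131 RPKM, and Mptx2, Ang4 and Itln1 are in the Paneth list too. Saa3, an acute-phase serum amyloid, went from 0.207 to 9.13 RPKM and Lcn2, which binds bacterial siderophores, from 0.818 to 7.09 RPKM. The 4 defence genes of highest mean level over all libraries were not called in jejunum: Sprr2a1 was at 676 and 647 RPKM, Lypd8 at 835 and 1078 RPKM, the mucin Muc13 at 1364 and 1597 RPKM, and Pigr, the carrier of secretory antibody, at 745 and 1044 RPKM. The 12 include a pair of genes that neutrophils make, S100a8 (0.127 and 2.17 RPKM) together with S100a9, whose values were 0.0764 and 2.41 RPKM. Of 4 neutrophil genes kept in jejunum 3 were higher, with a median of 1.45, and the 12 genes of that list summed to 3.76 and 13.1 RPKM. Their part in the defence list was not tested. Among other lectins of the gut, 2 of 12 were called, Itln1 (346 and 741 RPKM) and Mbl2 (3.50 and 16.4 RPKM).

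In ileum, where Reg3b and Reg3g were highest, no Reg gene was called. Across all genes kept there, 0.148% were called higher and 0.123% lower. Reg3b had a VSG to sham ratio of 0.980 (95% interval 0.969 to 0.992) and Reg3g one of 1.09 (1.07 to 1.11). Reg4 had the widest difference of the well covered genes, at 1.68 times the sham level (1.58 to 1.80), and Reg3a was 1.26 times lower (1.19 to 1.34). Reg1 had a ratio of 1.30 (0.961 to 1.75), an interval that includes 1. Of 11 genes kept from the list of deep crypt secretory and enteroendocrine cells, where Reg4 is known, 0 were called in ileum, with a median of 0.34. Of 13 Paneth genes 1 was called there, with a median of 0.41, and of 21 defence genes 4 were higher and 1 lower. Mptx2 was at 53.7 and 268 RPKM and Saa1 at 29.8 and 8.66 RPKM.

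In colon, Reg3b and Reg3g stood lower in the VSG library and Reg1 higher. Reg3b was 2.66 times lower (95% interval 2.42 to 2.91) and Reg3g 2.13 times lower (1.80 to 2.50), in a comparison where 0.0463% of all genes kept were called lower. Reg1 was 9.22 times higher (6.02 to 14.7), where 0.432% were called higher, and Reg4 had a ratio of 0.933 (0.887 to 0.982). Reg2 was at 0 in Sham Colon and at 0.849 RPKM in VSG Colon, a level at least 2.88 times higher by the exact interval and 8.41 times the floor of 3 reads. The acinar list was higher at 16 of its 21 genes kept, with a median of 3.80 and 0 lower, its sum was 3616 and 4444 RPKM, and 4 and 0 of its genes were at 0. Reg1 was at 0.0936 times the RPKM of Ctrb1 in VSG Colon and Reg2 at 0.00593 times. In VSG Stomach the same ratios were 0.148 for Reg1 and 0.0774 for Reg2, and in VSG Duodenum 4.88 and 0.00446. The part of acinar RNA in the colonic Reg1 difference was not tested. The defence list had 3 of 24 genes higher and 0 lower in colon, led by S100a8 (0.535 and 3.68 RPKM), a neutrophil gene as well. The receptor list had 0 of 18 called and the Paneth list 2 of 12.

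In stomach, 6 of the 7 Reg genes stood higher in the VSG library, and the seventh, Reg4, was under the level kept. The ratios were 4.86 for Reg3g (95% interval 3.90 to 6.10), 9.09 for Reg3b (6.49 to 13.0), 40.3 for Reg1 (30.2 to 53.7), 64.1 for Reg3a (21.5 to 317) and 489 for Reg2 (135 to 4051). Reg3d, at 0 in Sham Stomach, stood at 2.02 RPKM in VSG Stomach, at least 15.7 times higher by the exact interval and 41.2 times the floor of 3 reads. The floor counts single reads, the interval pairs of reads. Across all genes kept in stomach, 12.9% were called higher and 3.94% lower. The same pair differed in all 15 liver genes and all 12 neutrophil genes, each higher in VSG Stomach, while 7 of 9 stomach identity genes were lower, among them the pepsinogen Pgc (92217.9 and 1376 RPKM). Of 23 acinar genes kept, 16 were higher and 2 lower, Clps (41858 and 263 RPKM) and Ptf1a (1.92 and 0.229 RPKM), and because of Clps the sum of the list went from 42429 to 3005 RPKM. Of the ligands kept, 5 of 6 were higher, led by Il1b (0.338 and 32.1 RPKM), and of receptors and transducers 4 of 18, among them Socs3, the feedback inhibitor of Stat3 signalling (9.84 and 48.3 RPKM). The defence list was higher at 15 of 23 genes, with Saa1, Saa2 and Saa3, which liver makes too, from under 1 RPKM to 2520, 2900 and 1519 RPKM. The part of liver, acinar and neutrophil RNA, and of the lower level of stomach genes, in the stomach differences was not tested.

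The duodenum pair gives the value of VSG Duodenum beside a library without the markers of gut. All 7 Reg genes were called higher, where 27.5% of all genes kept were called higher and 27.9% lower. Neural RNA and surgery cannot be told apart in this pair, and nothing is read from it. Rescaling all libraries to the same summed RPKM moved the median of all genes by at least 0.1 in stomach (to 0.17), duodenum (to -0.83) and jejunum (to 0.11). The share of calls that were higher went from 49.6% to 25.8% in duodenum, from 71.8% to 82.1% in jejunum and from 54.5% to 44.1% in ileum, and the Reg calls kept their direction.

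**Figure D4:**
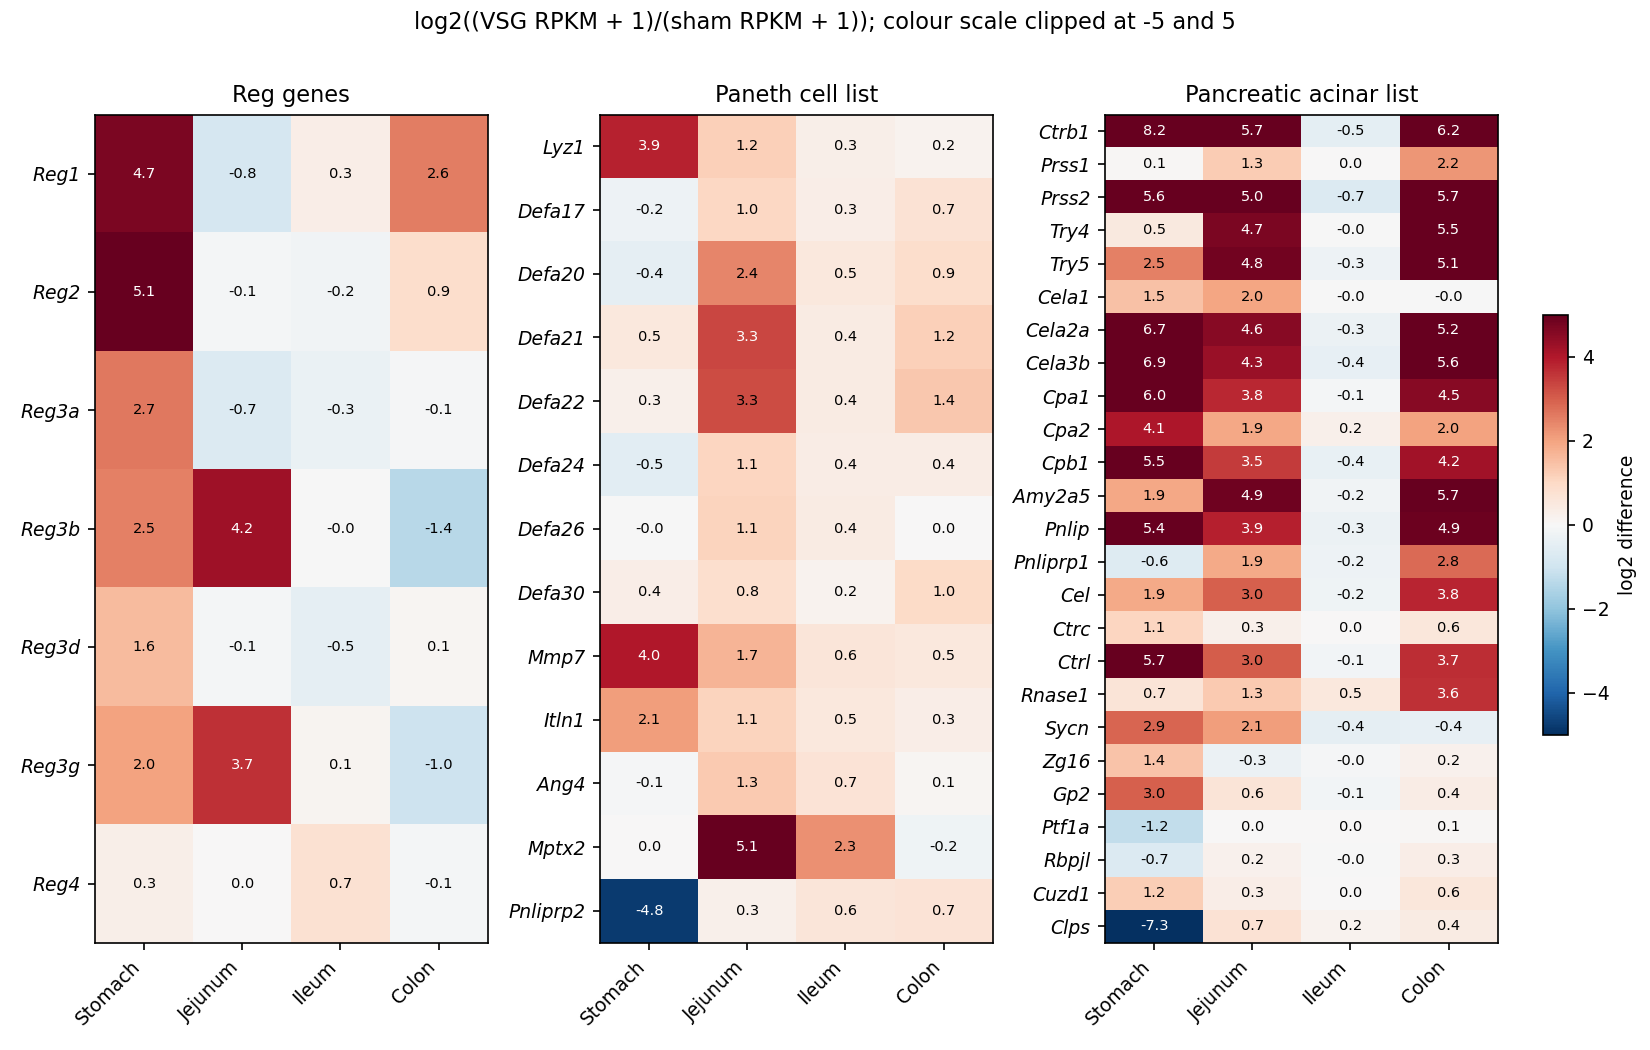
Difference of the VSG from the sham library, as log2((VSG RPKM + 1)/(sham RPKM + 1)), for the Reg genes, the Paneth cell list and the pancreatic acinar list in 4 tissues; numbers give the difference, and colours are clipped at -5 and 5. In jejunum 11 of 13 Paneth genes and 17 of 20 acinar genes kept are higher, in ileum 1 and 0 are, and in colon Reg3b and Reg3g are lower while 16 of 21 acinar genes kept are higher.

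Over stomach, jejunum, ileum and colon together, with the tissue as a block, limma called 0 of 13357 genes for surgery (0.0%), and 349 had an unadjusted p under 0.05. The estimates were 1.33 for Reg3b (SE 0.99, limma adjusted p = 0.825), 1.19 for Reg3g (SE 0.81), 1.69 for Reg1 (SE 0.96) and 0.24 for Reg4 (SE 0.16). The genes did not move one way in all 4 tissues: Reg3b and Reg3g were higher in stomach and jejunum and lower in colon, and Reg1 was higher in stomach and colon, while its lower level in jejunum was under 2-fold.

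Across the 9 libraries other than Sham Duodenum, the gene whose log2(RPKM + 1) followed that of Reg3b most closely, among 13325, was Reg3g, with a Pearson r of 0.974. These values are descriptions, since pairs of libraries share a tissue and each partner is the closest of 13325 genes over 9 libraries. Reg1 was most like Irf9 (r = 0.976), Reg2 most like Grrp1 (0.985), Reg3a most like Slc16a10, an amino acid transporter (0.995), and Reg3d most like Tifab (0.987). The r of Reg2 rests mainly on VSG Stomach (36.1 RPKM) and VSG Duodenum (3.41 RPKM), the only libraries where it reached 1 RPKM. Reg4 was most like Vipr1, a receptor for vasoactive intestinal peptide (0.996), Tmem45b (0.995) and Vdr, the vitamin D receptor (0.994). Within the family, Reg1 and Reg3d had r of 0.797, Reg3a and Reg3g 0.785, and Reg1 and Reg3b 0.193.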

How the data were processed

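Per the labels' protocols, TRIzol was used for extraction and a TruSeq kit for the libraries. GSNAP, Cufflinks and the build mm10 appear in the submitters' processing notes without versions or roles, and no annotation is named. The deposited RPKM values, made by the authors, cover 23079 genes listed by Entrez identifier, of which 23008 matched a symbol. Between rows 27 and 18213 the 8 intestinal columns stood 1 row below the identifiers, and they were moved back by 1 row. After the move, the values of all 7 Reg genes gave whole reads at a single length in every library (within 0.01 reads), and none did as deposited. Over genes with a single transcript, 26.9% of 2176 were whole at their annotated length after the move and 0.391% of 2044 as deposited.

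Low genes showed counts of 2 more often than of 1 in every library, from which paired reads were inferred, since the labels do not state pairing. Intervals therefore count a pair of reads once and would be narrower if reads were single. Genes averaging 1 RPKM or more in the libraries compared were kept, and values were taken as log2(RPKM + 1), which understates changes of low genes. Limma 3.58.1 in R 4.3.3 was run with a mean-variance trend and tested on simulated data. Alternatives were another pseudocount, no filter, rescaling, the rows as deposited and other sets of libraries. SciPy 1.17.1 gave the intervals and Biopython 1.88 the alignments of GENCODE transcripts. The genes named are the 7 members, the genes most correlated with each, and, from each list, those of highest mean level or largest difference. Ang4 and Ptf1a were named after their values were seen. The members and lists were chosen with earlier results of these data known.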

Additional observations from a re-analysis of the deposited data

Results flagged for a closer look

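Both Reg3b and Reg3g stood higher in the VSG than in the sham library in stomach and jejunum, and lower in colon. The difference between tissues was not tested, since each tissue has 1 library per surgery. The VSG Stomach library also held liver and neutrophil RNA. For Reg3b the log2 difference of VSG from sham was larger in stomach than in colon by 3.90 and larger in jejunum than in colon by 5.62. For Reg3g the same differences were 3.05 and 4.70.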

How the results depend on the processing

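With a pseudocount of 0.1, the genes at 2-fold numbered 205 in jejunum (124 with a pseudocount of 1), 77 in ileum (33) and 96 in colon (62). The 18 Reg calls within tissues kept their direction and 2-fold size after rescaling. A smaller pseudocount can only widen a difference, and dropping the filter leaves it unchanged, so neither setting could undo a call. Of the 18, 6 are stomach calls, which the rows as deposited could not change, since the stomach columns were not moved. Another 7 are from the duodenum pair, from which nothing is read. With the rows as deposited, 13 of 18 held. Those rows give each Reg gene the intestinal values of its neighbour, and turned Reg3b in jejunum to -0.69, Reg3g in jejunum to -0.083 and Reg3g in colon to 0.10 (log2). In the tissue fits they turned Reg4 in colon to -1.95, Reg3g in ileum to -0.58, Reg3a in jejunum to -0.88, and Reg3a and Reg3g in stomach to 0.87 and 2.20. Adding the Sham Duodenum library turned Reg4 in duodenum to -1.69. Genes called in at least 1 tissue numbered 3650, against 9287 with the rows as deposited and 1138 with all 10 libraries. Of the 13 Reg tissue calls, 12 held with a pseudocount of 0.1, 10 without a filter (Reg3b and Reg3g in ileum and Reg1 in colon were lost), 13 after rescaling and 13 without the VSG Stomach library. Over 4 tissues, 2 genes were called without the stomach pair, against 0. The labels give no replicate numbers, and the tissue paired the libraries in that fit; without it 0 genes were called as well. Reg2 outside VSG Stomach and VSG Duodenum, Reg3d and the stomach values of Reg4 rest on few reads, and their ratios are limited by depth.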
